A study of Mus musculus with 12 samples.

Results

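The mTORC1 pathway and its stress inhibitors were represented by 10 genes, chosen by symbol, of the 19937 genes that have a probe set with 1 symbol on the array. They were Mtor, Rptor, Rictor, Tsc1, Tsc2, Rheb, Rps6kb1, Sesn2, Ddit4 and Akt1, a choice made with earlier results of these data known. For 9 of the 10 a probe set was found, 1 each, and all 9 passed the filter on dim genes. Rps6kb1, which encodes S6 kinase 1, was not analysed here. The cells came from clone 483, a T-ALL (T cell acute lymphoblastic leukaemia) of C57BL6 mice, so every array reports 1 clone. The arrays form 4 groups of 3: polysomal RNA of cells given 100 µM 4EGI-1 for 2 h, polysomal RNA of control cells, cytoplasmic RNA of 4EGI-1 cells, and cytoplasmic RNA of control cells. The labels call the control untreated, whereas the protocol names DMSO, the solvent. The cytoplasmic RNA carries the word total in its sample titles. The compound 4EGI-1 interferes with the contact between eIF4E, which holds the mRNA cap, and its scaffold partner eIF4G. The labels do not say whether the replicates of a group were separate cultures, so p-values measure the spread between arrays, which may be technical.

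The kinase mTOR works in a pair of complexes, mTORC1 with the scaffold raptor and mTORC2 with rictor. On the lysosome the GTPase Rheb switches mTORC1 on, and the TSC1-TSC2 complex switches Rheb off. AKT relieves that brake when growth factors signal through PI3K, while DDIT4 (REDD1) and sestrin 2 hold mTORC1 down when cells lack oxygen or amino acids or are otherwise stressed. Active mTORC1 phosphorylates S6 kinase and the 4E-BPs, and phosphorylated 4E-BPs let go of eIF4E, the protein that 4EGI-1 acts on.

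Values are log2 signals after RMA, and changes are differences of log2 values between groups relative to the other genes of the array. Because signals are relative within an array, the overall amount of RNA in polysomes was not measured, and neither was any protein or phosphorylation. A gene was called when its Benjamini-Hochberg adjusted p from limma over 13180 genes was below 0.05. Over genes, the median SD among replicates was 0.0761 for polysomal 4EGI-1, 0.0745 for polysomal control, 0.121 for cytoplasmic 4EGI-1 and 0.133 for cytoplasmic control arrays, while the fit uses 1 pooled spread per gene. Of the T lineage markers fixed for the check, 8 of 8 with a probe set lay above the filter level of 6.003, with Cd3e between 11.5 and 12.1 on all arrays. Of 13 markers of B, myeloid, erythroid, stromal and endothelial cells, 8 also lay above that level, led by Pecam1 with a mean of 8.48, while Cd79a and Ms4a1 of B cells lay at 4.70 and 4.42. With 4EGI-1, 0 of these 8 rose or fell in polysomal RNA (25.2% of all genes called), and 1 rose and 2 fell in cytoplasmic RNA (17.8% of all genes). Of the 8 T lineage markers 0 rose and 2 fell in polysomal RNA, Cd3d (-0.40) and Cd3e (-0.41), and 0 rose and 1 fell in cytoplasmic RNA, Cd3e (-0.32). Their part in the results below was not tested. In bulk RNA, fewer cells of a type and less RNA per cell cannot be told apart.

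The cytoplasmic arrays numbered 2 stood apart for these genes. In both the 4EGI-1 and the control group, 8 of the 9 members had their lowest cytoplasmic value on array 2, and in the 4EGI-1 group 8 of 9 had their highest on array 3. Over all genes tested the lowest value fell on array 2 for 43.8% in the 4EGI-1 group and 38.5% in the control group. The counts of members called for the effect of 4EGI-1 were 4 in polysomal and 3 in cytoplasmic RNA both with and without these arrays, a check added after the values were seen.

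With 4EGI-1, 4 of the 9 members changed in polysomal RNA and 3 in cytoplasmic RNA. The stress inhibitor genes Sesn2 and Ddit4 rose in both fractions, Akt1 fell in both, and Mtor rose in polysomal RNA with a cytoplasmic change near 0. Over all genes 25.2% were called in polysomal and 17.8% in cytoplasmic RNA (13.0% higher and 12.1% lower in polysomal RNA, 10.1% higher and 7.79% lower in cytoplasmic RNA), so with 9 genes the counts are read gene by gene. The median change of the members was 0.20 in polysomal RNA, against -0.03 for all genes tested, and -0.06 in cytoplasmic RNA, against -0.03.

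**Figure D1:**
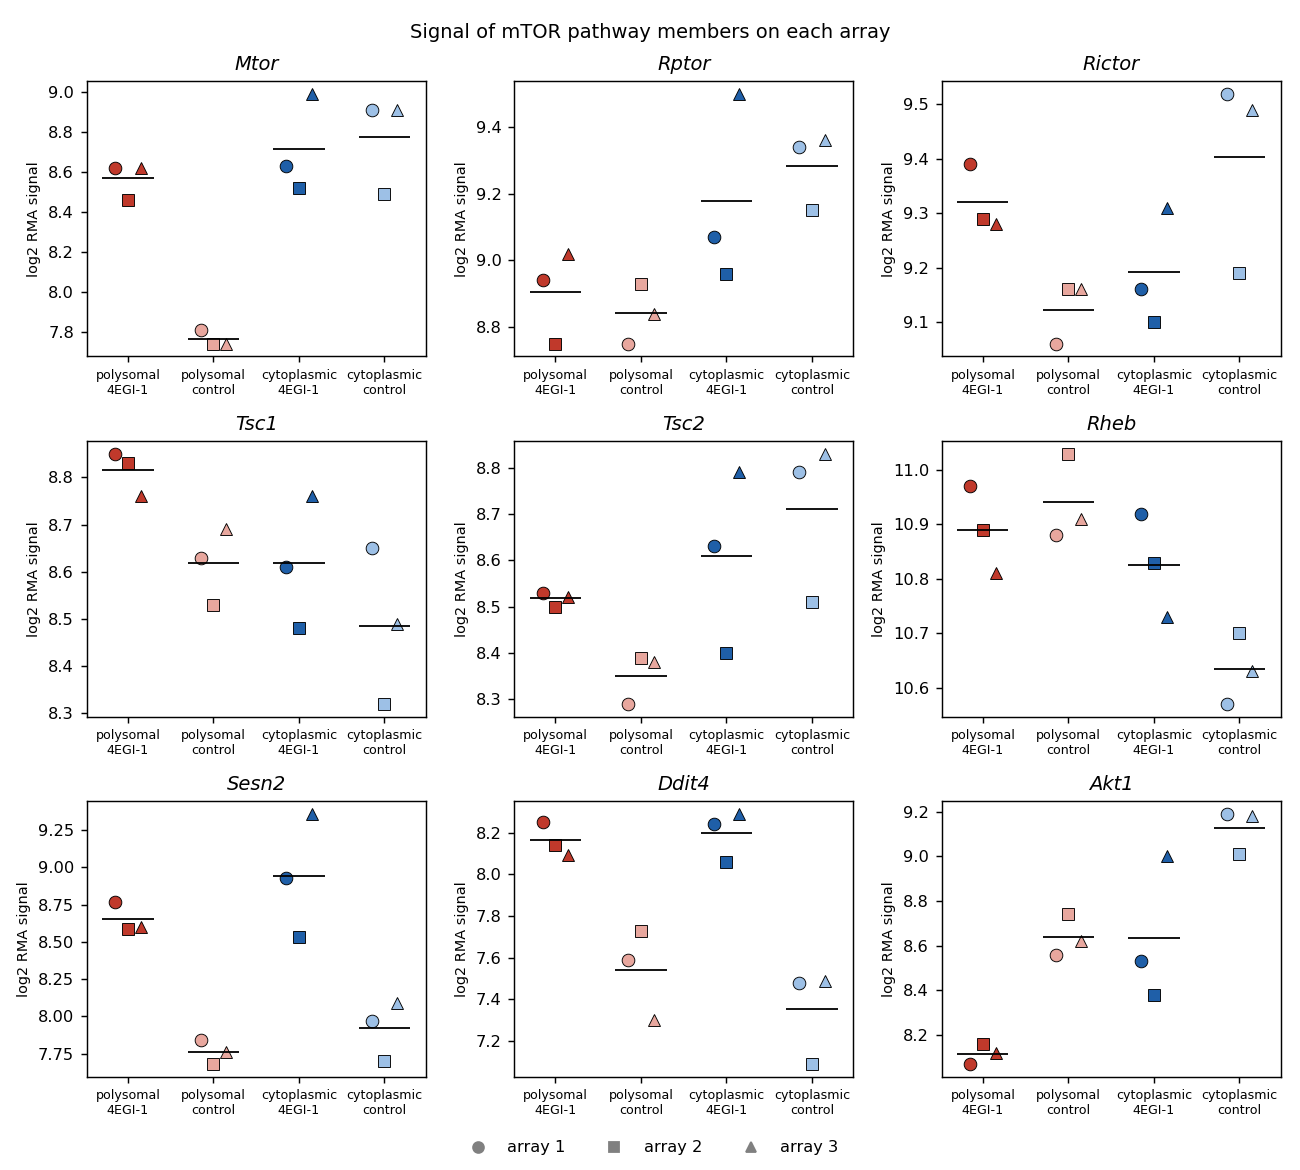
Log2 RMA signal (y axis, its own range in each panel) of the 9 members on every array. Points are arrays, with the array number as marker shape, and black lines are the means of 3 arrays. Mtor lies low only in the polysomal control group, Sesn2 and Ddit4 are higher in both 4EGI-1 groups, and Akt1 is lower in both.

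Sesn2 encodes sestrin 2, a leucine-binding stress protein that restrains mTORC1 through the GATOR complexes and is induced by p53, ATF4 and NRF2. In polysomal RNA its signal was 8.77, 8.59 and 8.60 in 4EGI-1 cells, against 7.84, 7.68 and 7.76 in control cells. In cytoplasmic RNA it was 8.93, 8.53 and 9.36 in 4EGI-1 cells, against 7.97, 7.70 and 8.09 in control cells. All 4EGI-1 arrays thus lay above all control arrays in both fractions, with the widest spread among the cytoplasmic 4EGI-1 arrays. Sesn2 rose 1.85-fold in polysomal RNA (0.89 ± 0.16 on the log2 scale, SE, n = 3 arrays per group; limma, adjusted p = 0.000676) and 2.03-fold in cytoplasmic RNA (1.02 ± 0.16; limma, adjusted p = 0.000375). The cytoplasmic change stood at percentile 99.4 of all genes tested and the polysomal one at 98.6.

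Ddit4 encodes REDD1, a short-lived inhibitor that acts on mTORC1 through the TSC complex and is induced by hypoxia, glucocorticoids, DNA damage and ATF4. Its polysomal signal was 8.25, 8.14 and 8.09 in 4EGI-1 cells, against 7.59, 7.73 and 7.30 in control cells. Its cytoplasmic signal was 8.24, 8.06 and 8.29 in 4EGI-1 cells, against 7.48, 7.09 and 7.49 in control cells. The groups did not overlap in either fraction, and the control arrays were more scattered than the 4EGI-1 arrays. Ddit4 rose 1.54-fold in polysomal RNA (0.62 ± 0.12; limma, adjusted p = 0.0015) and 1.79-fold in cytoplasmic RNA (0.84 ± 0.12; limma, adjusted p = 0.000232). For neither inhibitor did the effects in the fractions differ beyond the spread: the polysomal minus cytoplasmic difference was -0.13 for Sesn2 (95% interval -0.61 to 0.34) and -0.22 for Ddit4 (-0.59 to 0.15), with adjusted p-values of 0.879 and 0.665 (limma). All these calls of Sesn2 and Ddit4 held under each alternative tried.

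Because Sesn2 and Ddit4 rose together, the windows around their annotated start sites are shown, from 250 bases before to 50 after, from RefSeq on build GRCm38.p6, on the minus strand and read 5′ to 3′ along the gene (Ddit4 chr10:59951721-59952020, Sesn2 chr4:132510407-132510706). Capitals mark ACGTG, a form of the core of the hypoxia response element, and CCAAT, the box bound by NF-Y, on either strand. The reverse complement of CCAAT reads ATTGG. Other forms of the hypoxia core were not searched.
Ddit4: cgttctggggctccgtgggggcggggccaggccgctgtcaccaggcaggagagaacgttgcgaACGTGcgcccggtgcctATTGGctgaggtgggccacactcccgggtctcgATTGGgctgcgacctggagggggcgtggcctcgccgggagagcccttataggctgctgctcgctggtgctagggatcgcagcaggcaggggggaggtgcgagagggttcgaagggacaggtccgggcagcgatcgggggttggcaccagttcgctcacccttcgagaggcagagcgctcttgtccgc
Sesn2: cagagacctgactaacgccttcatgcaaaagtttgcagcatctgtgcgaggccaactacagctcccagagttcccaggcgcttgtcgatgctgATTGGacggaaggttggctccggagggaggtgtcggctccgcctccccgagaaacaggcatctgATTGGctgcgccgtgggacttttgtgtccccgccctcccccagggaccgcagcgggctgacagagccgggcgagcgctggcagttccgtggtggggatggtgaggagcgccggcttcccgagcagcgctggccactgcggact
Each window holds CCAAT on the opposite strand, as ATTGG, 2 times, at positions -170 and -137 from the start site in Ddit4 and -157 and -93 in Sesn2. Of 32851 RefSeq start windows of this length, 37.4% hold CCAAT at least 1 time on either strand. The share that holds it 2 times was not counted. The Ddit4 window also holds 1 ACGTG, which 19.6% of windows hold. Neither motif is particular to the genes that rose in both fractions: CCAAT matches 4 times in the Mtor window and 1 time in that of Rictor, and ACGTG also matches in the windows of Rheb and Rptor. TGATGNAA, the core of the C/EBP-ATF response element, is in neither window and in 3.97% of all windows. CCAAT was searched after these windows had been read, and a match of letters does not show a bound site.

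Mtor encodes the kinase itself. In polysomal RNA it read 8.62, 8.46 and 8.62 in 4EGI-1 cells, against 7.81, 7.74 and 7.74 in control cells. In cytoplasmic RNA it read 8.63, 8.52 and 8.99 in 4EGI-1 cells, against 8.91, 8.49 and 8.91 in control cells. The polysomal groups were far apart and the cytoplasmic groups covered the same range. Mtor rose 1.74-fold in polysomal RNA (0.80 ± 0.13; limma, adjusted p = 0.000258), which is percentile 97.9 of all genes, and its cytoplasmic change was -0.06 ± 0.13 (limma, adjusted p = 0.801). The difference of the effects, 0.86 ± 0.18, was at percentile 99.5, and Mtor was the single member of 9 called for it (limma, adjusted p = 0.015), against 2.92% of all genes (2.31% higher). That call ended without cytoplasmic 4EGI-1 array 1 (0.81, adjusted p = 0.0501), polysomal 4EGI-1 array 1 (0.83, 0.0531) or polysomal 4EGI-1 array 3 (0.83, 0.0548), each with limma. The polysomal change itself was called under every alternative.

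Akt1 encodes a kinase that PI3K signalling activates and that phosphorylates TSC2. Its polysomal signal was 8.07, 8.16 and 8.12 in 4EGI-1 cells, against 8.56, 8.74 and 8.62 in control cells. Its cytoplasmic signal was 8.53, 8.38 and 9.0 in 4EGI-1 cells, against 9.19, 9.01 and 9.18 in control cells. Each 4EGI-1 array was below each control array of its fraction, though cytoplasmic 4EGI-1 array 3 came within a narrow margin. Akt1 fell by 0.52 ± 0.12 on the log2 scale in polysomal RNA (limma, adjusted p = 0.00577) and by 0.49 ± 0.12 in the cytoplasm (adjusted p = 0.013 with limma), and the effects differed by -0.03 (95% interval -0.41 to 0.34). The cytoplasmic call ended without 4EGI-1 array 1 (-0.44, adjusted p = 0.0628) or array 2 (-0.36, 0.0661) and when the 6 cytoplasmic arrays were fitted by themselves (0.0818).

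**Figure D2:**
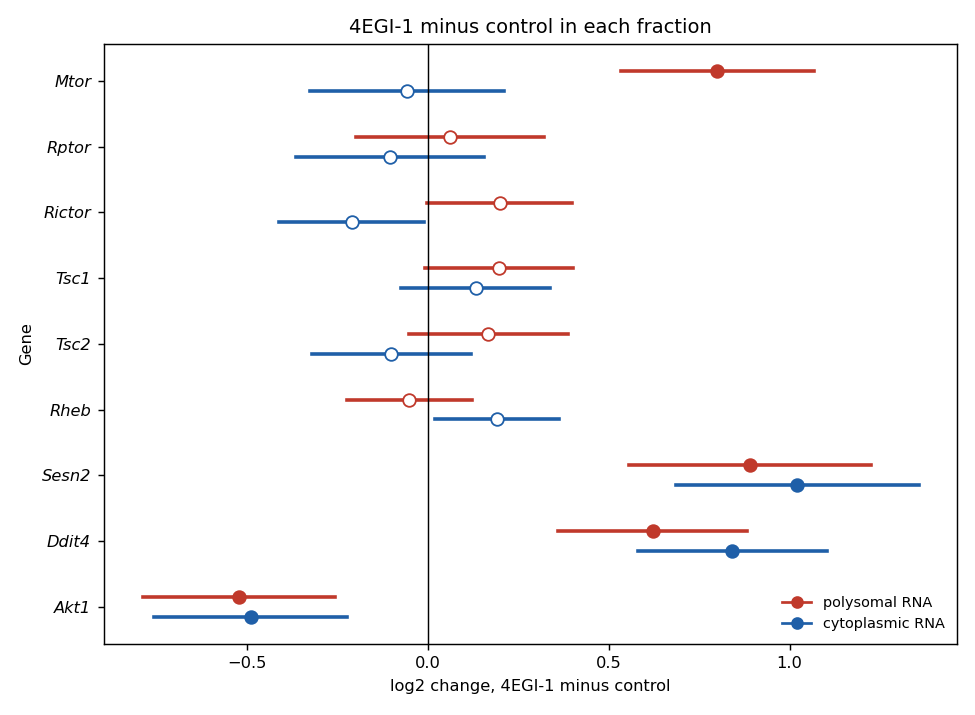
Log2 change, 4EGI-1 minus control (x axis), of each member (y axis) in polysomal RNA (red, upper) and cytoplasmic RNA (blue, lower). Points are fitted differences of groups of 3 arrays, bars their 95% intervals from limma, and filled points those with an adjusted p below 0.05. Mtor is filled in polysomal RNA only, and Sesn2, Ddit4 and Akt1 in both.

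The complex partners and the TSC-Rheb switch showed small changes, of at most 0.21 in size, and none was called in either fraction. Rictor, the mTORC2 scaffold, read 9.39, 9.29 and 9.28 in polysomal RNA of 4EGI-1 cells, against 9.06, 9.16 and 9.16 in control cells. Its cytoplasmic signal was 9.16, 9.10 and 9.31 in 4EGI-1 cells, against 9.52, 9.19 and 9.49 in control cells. The polysomal groups were apart, with 4EGI-1 higher, and the cytoplasmic groups overlapped. The changes were 0.20 ± 0.09 (limma, adjusted p = 0.148) in polysomal and -0.21 ± 0.09 (limma, adjusted p = 0.144) in cytoplasmic RNA, opposite in sign, and their difference of 0.41 ± 0.13 lay at percentile 96.1 (limma, adjusted p = 0.147). Without cytoplasmic control array 2 the cytoplasmic change was -0.31 (limma, adjusted p = 0.018) and the difference 0.51 (limma, adjusted p = 0.0205), and without array 2 of both cytoplasmic groups the difference was 0.47 (limma, adjusted p = 0.0461).

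Rptor, the mTORC1 scaffold, read 8.94, 8.75 and 9.02 in polysomal RNA of 4EGI-1 cells, against 8.75, 8.93 and 8.84 in control cells, and the groups overlapped. Its changes were 0.06 ± 0.12 in polysomal RNA (95% interval -0.20 to 0.32) and -0.11 ± 0.12 in cytoplasmic RNA (-0.37 to 0.15). Tsc1 encodes hamartin, which stabilises the complex. It read 8.85, 8.83 and 8.76 in polysomal RNA of 4EGI-1 cells, against 8.63, 8.53 and 8.69 in control cells, and its groups did not overlap. Tsc2 encodes tuberin, the GTPase-activating subunit. It read 8.53, 8.50 and 8.52 in polysomal RNA of 4EGI-1 cells, against 8.29, 8.39 and 8.38 in control cells, also without overlap. The polysomal changes were 0.20 ± 0.10 for Tsc1 (limma, adjusted p = 0.162) and 0.17 ± 0.10 for Tsc2 (0.28), and the cytoplasmic ones 0.13 ± 0.10 (0.39) and -0.10 ± 0.10 (0.553). When the 6 polysomal arrays were fitted by themselves, Rictor (adjusted p = 0.0281, limma), Tsc1 (0.0317) and Tsc2 (0.0473) passed with the same changes. That fit called 5031 of 13180 genes, against 3316 in the main fit, so passing there does not set these genes apart.

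Rheb, the GTPase that activates mTORC1, read 10.97, 10.89 and 10.81 in polysomal RNA of 4EGI-1 cells, against 10.88, 11.03 and 10.91 in control cells. Its cytoplasmic signal was 10.92, 10.83 and 10.73 in 4EGI-1 cells, against 10.57, 10.70 and 10.63 in control cells. The cytoplasmic groups were apart with 4EGI-1 higher, while the polysomal groups overlapped. Rheb had changes of -0.05 ± 0.08 in polysomal RNA (limma, adjusted p = 0.72) and 0.19 ± 0.08 in cytoplasmic RNA (limma, adjusted p = 0.118). Its difference of effects was -0.24 ± 0.11 (limma, adjusted p = 0.367).

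The presence of each RNA in polysomes was read from polysomal minus cytoplasmic signal, which is relative to the average RNA. In 4EGI-1 cells 1 of the 9 members was called, Akt1, lower in polysomes, against 16.7% of all genes (9.56% higher and 7.15% lower). In control cells 6 of 9 were called, against 29.0% of all genes (16.7% higher and 12.2% lower): Mtor, Rptor, Rictor, Tsc2 and Akt1 were lower in polysomal RNA and Rheb was higher. The median over the members was -0.09 in 4EGI-1 cells and -0.28 in control cells, against -0.01 and -0.02 over all genes. These comparisons share the treatment groups with those above, so they are the same values seen along the other axis.

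For Mtor the polysomal minus cytoplasmic difference was -0.15 ± 0.13 in 4EGI-1 cells (limma, adjusted p = 0.465) and -1.01 ± 0.13 in control cells (limma, adjusted p = 4.08e-05), where it was at percentile 0.835 of all genes. Its mean signal was 8.57 ± 0.09 in polysomal 4EGI-1, 7.77 ± 0.04 in polysomal control, 8.71 ± 0.24 in cytoplasmic 4EGI-1 and 8.77 ± 0.24 in cytoplasmic control arrays (SD, n = 3 each), so the polysomal control group was lowest and the ranges of the other groups overlapped. Akt1 was lower in polysomes under both conditions, with -0.52 ± 0.12 in 4EGI-1 cells (limma, adjusted p = 0.0119) and -0.49 ± 0.12 in control cells (limma, adjusted p = 0.00834). Mean Akt1 signal was 8.12 in polysomal 4EGI-1, 8.64 in polysomal control, 8.64 in cytoplasmic 4EGI-1 and 9.13 in cytoplasmic control arrays. The call in 4EGI-1 cells ended without polysomal 4EGI-1 array 1 (-0.50, adjusted p = 0.0521).

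Rheb was enriched in polysomes of control cells by 0.31 ± 0.08 (limma, adjusted p = 0.00935), with 0.07 ± 0.08 in 4EGI-1 cells (limma, adjusted p = 0.63). Rptor had -0.27 ± 0.12 in 4EGI-1 cells (limma, adjusted p = 0.142) and -0.44 ± 0.12 in control cells (0.0131). Tsc2 had -0.09 ± 0.10 in 4EGI-1 cells (limma, adjusted p = 0.594) and -0.36 ± 0.10 in control cells (0.016), and Rictor 0.13 ± 0.09 (0.386) and -0.28 ± 0.09 (0.0358). The control calls of Rptor, Tsc2 and Rictor were the least stable: centring the arrays on their medians gave -0.36 (adjusted p = 0.0651), -0.28 (0.0992) and -0.20 (0.206), and each ended without cytoplasmic control array 1 (adjusted p = 0.0514, 0.0673 and 0.145) or polysomal control array 1 (0.0614, 0.0681 and 0.129). That of Rictor also ended without cytoplasmic control array 3 (0.104) or polysomal control array 2 (0.0673) or 3 (0.0698), with no filter on dim genes (0.067) and with each treatment fitted by itself (0.0655), and that of Tsc2 without cytoplasmic control array 3 (0.0582).

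Tsc1, Sesn2 and Ddit4 were not called between fractions in either condition. Their differences were 0.20 ± 0.10, -0.29 ± 0.16 and -0.03 ± 0.12 in 4EGI-1 cells, against 0.13 ± 0.10, -0.16 ± 0.16 and 0.19 ± 0.12 in control cells. Without cytoplasmic 4EGI-1 array 2 Sesn2 was lower in polysomes of 4EGI-1 cells (-0.50; limma, adjusted p = 0.0247), as without array 2 of both cytoplasmic groups (adjusted p = 0.00977), where Rptor was lower there too (-0.38; adjusted p = 0.0392).

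**Figure D3:**
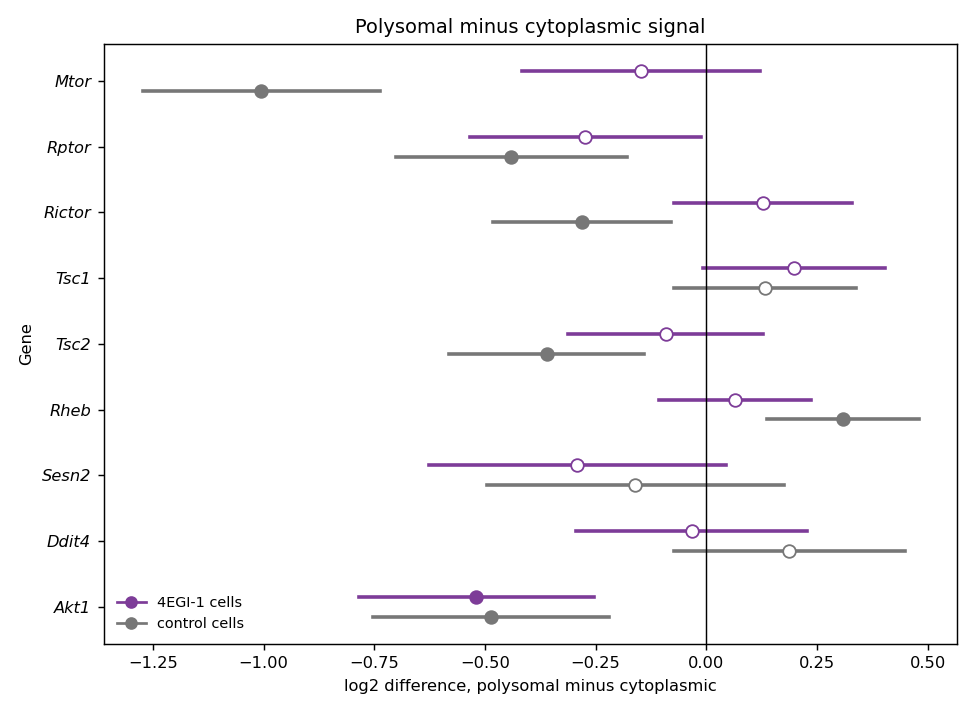
Polysomal minus cytoplasmic log2 signal (x axis) of each member (y axis) in 4EGI-1 cells (purple, upper) and control cells (grey, lower). Points are fitted differences of groups of 3 arrays, bars their 95% intervals from limma, and filled points those with an adjusted p below 0.05. Mtor is at -0.15 in 4EGI-1 cells and -1.01 in control cells, and Akt1 lies near -0.5 in both.

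The other genes of the pathway were taken from 6 lists of 88 genes, of which 82 had a probe set and 73 were tested. The lists were chosen with earlier results of these data known. A share above that of all genes, here or in a single list, may therefore reflect the choice. In polysomal RNA 5 rose and 24 fell with 4EGI-1, which is 39.7% called against 25.2% of all genes. In cytoplasmic RNA 4 rose and 18 fell, 30.1% against 17.8%. For the difference of effects 2 were called, 2.74% against 2.92%. The median change over the 73 genes was -0.10 in polysomal and -0.09 in cytoplasmic RNA, each against -0.03 over all genes. Named are the genes with the smallest p-values in each list.

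The other stress inhibitor genes moved in both directions. Of 13 tested genes around TSC, sestrins and the energy sensor AMPK, 1 rose and 6 fell in polysomal RNA (53.8% called, against 25.2% of all genes, with 13.0% higher and 12.1% lower), and 2 rose and 5 fell in cytoplasmic RNA (53.8%, against 17.8%, with 10.1% higher and 7.79% lower). Sesn1, a paralogue of Sesn2 that p53 and FOXO factors induce, read 9.50, 9.26 and 9.52 in polysomal RNA of 4EGI-1 cells, against 10.16, 10.10 and 10.05 in control cells, and 9.33, 9.27 and 9.32 in cytoplasmic RNA of 4EGI-1 cells, against 9.92, 9.94 and 9.92 in control cells. The groups were well apart, with 4EGI-1 lower, whereas for Sesn2 they were higher. Sesn1 fell by 0.68 ± 0.08 in polysomal RNA (limma, adjusted p = 1.98e-05) and by 0.62 ± 0.08 in the cytoplasm (limma, adjusted p = 8.69e-05). The third sestrin gene, Sesn3, fell as well, by 0.46 ± 0.11 in polysomal RNA (limma, adjusted p = 0.00503) and by 0.37 ± 0.11 in the cytoplasm (0.0255), where 4EGI-1 array 3 (10.03) lay above control array 2 (9.99), and this cytoplasmic call ended in 6 of 23 alternatives, among them without control array 1 (0.0734) or 3 (0.0906), without 4EGI-1 array 1 (0.111) or 2 (0.118), and without array 2 of both groups (0.0504).

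Trib3, a pseudokinase gene that is a target of ATF4 and CHOP and whose product can bind AKT, rose by 0.52 ± 0.12 in polysomal RNA (limma, adjusted p = 0.00355) and 0.70 ± 0.12 in cytoplasmic RNA (0.000657). Prkag2, which encodes a regulatory subunit of AMPK, fell by 0.74 ± 0.10 and 0.76 ± 0.10 (limma, adjusted p = 4.59e-05 and 7.25e-05). Of the other AMPK subunit genes, Prkab1 was higher with 4EGI-1 and Prkaa2 lower, each without overlap of the groups in either fraction. Polysomal means with 4EGI-1 and in control cells were 9.89 and 9.66 for Prkab1, and 9.19 and 9.58 for Prkaa2. Cytoplasmic means were 9.79 and 9.45 for Prkab1, and 8.99 and 9.36 for Prkaa2. Stk11, which encodes the AMPK-activating kinase LKB1, fell by 0.49 ± 0.10 in polysomal RNA (limma, adjusted p = 0.00183) and by 0.39 ± 0.10 in cytoplasmic RNA (0.0125). The cytoplasmic call of Stk11 ended without control array 3 (-0.29, adjusted p = 0.0538), without 4EGI-1 array 2 (-0.31, 0.062) and with the cytoplasmic arrays fitted by themselves (0.087).

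Several genes of the PI3K-AKT input to mTORC1 fell besides Akt1. Of 13 tested genes, 1 rose and 7 fell in polysomal RNA (61.5% called, against 25.2% of all genes and 12.1% lower), and 0 rose and 6 fell in cytoplasmic RNA (46.2%, against 17.8% and 7.79% lower), with median changes of -0.304 and -0.305. Pik3ca, which encodes a catalytic subunit of PI3K, read 9.89, 9.91 and 9.80 in polysomal RNA of 4EGI-1 cells, against 10.35, 10.36 and 10.34 in control cells, and fell by 0.49 ± 0.08 (limma, adjusted p = 0.00025). Akt2, the paralogue of Akt1, fell by 0.42 ± 0.10 in polysomal RNA (limma, adjusted p = 0.00454). In cytoplasmic RNA the catalytic subunit genes Pik3cb (-0.62 ± 0.13) and Pik3cg (-0.50 ± 0.10) and the regulatory subunit gene Pik3r5 (-0.53 ± 0.12) fell, with adjusted p-values from 0.00227 to 0.00526 (limma). These genes were lower with 4EGI-1 in the other fraction too, without overlap of the groups. Polysomal means were 7.72 against 8.24 in control cells for Pik3cb, 8.34 against 8.76 for Pik3cg and 9.21 against 9.60 for Pik3r5. Cytoplasmic means were 10.15 against 10.36 in control cells for Pik3ca and 10.31 against 10.61 for Akt2.

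Inpp5d, which encodes the lipid phosphatase SHIP1 that removes the product of PI3K, went the other way in polysomes. It read 7.59, 7.47 and 7.44 in polysomal RNA of 4EGI-1 cells, against 7.0, 6.93 and 7.21 in control cells, without overlap. Inpp5d rose by 0.45 ± 0.11 in polysomal RNA (limma, adjusted p = 0.00489), and its effect was larger there than in cytoplasmic RNA by 0.59 ± 0.15 (limma, adjusted p = 0.0473), a call that ended in 11 of 21 alternatives.

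Among genes of mTORC1 substrates and outputs, 1 of 16 rose and 3 fell in polysomal RNA (25% called, against 25.2% of all genes), and 0 rose and 3 fell in cytoplasmic RNA (18.8% against 17.8%), which is near the share of all genes. The autophagy kinase gene Ulk1 fell by 0.48 ± 0.13 in polysomal RNA (limma, adjusted p = 0.0103) and by 0.68 ± 0.13 in cytoplasmic RNA (0.00161). Sgk1, which encodes a kinase activated by mTORC2, fell by 0.56 ± 0.11 and 0.54 ± 0.11 (limma, adjusted p = 0.00149 and 0.00299). Sgk1 was dim, with polysomal means of 5.89 in 4EGI-1 and 6.45 in control cells, and cytoplasmic means of 5.997 and 6.54. It passed the filter level of 6.003 through its control groups, and its 4EGI-1 means lay below that level. Eif4ebp1, which encodes the eIF4E inhibitor 4E-BP1, rose by 0.37 ± 0.12 in polysomal RNA (limma, adjusted p = 0.0388), a call that ended in 8 of 23 alternatives, among them leaving out any 1 of the 6 polysomal arrays (adjusted p = 0.0618 to 0.135). Cytoplasmic Eif4ebp1 had means of 9.20 with 4EGI-1 and 8.88 in control cells, with overlap of the groups, and was not called. Lpin1, which encodes lipin 1, a phosphatidate phosphatase, read 6.81, 6.73 and 6.76 in polysomal RNA of 4EGI-1 cells, against 6.77 on each control array. In cytoplasmic RNA it read 6.49, 6.39 and 6.76 in 4EGI-1 cells, against 7.29, 6.95 and 7.14 in control cells. Lpin1 fell by 0.58 ± 0.10 in the cytoplasm (limma, adjusted p = 0.001) with the polysomal groups level, and the effects differed by 0.58 ± 0.14 (limma, adjusted p = 0.0402), which ended in 14 of 20 alternatives.

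The amino acid branch was mixed. Of 13 genes of the Rag GTPases, Ragulator and folliculin, 1 rose and 4 fell in polysomal RNA (38.5% called, against 25.2% of all genes), and 1 rose and 3 fell in cytoplasmic RNA (30.8% against 17.8%). Flcn, which encodes folliculin, an activator of RagC and RagD, fell by 0.41 ± 0.08 in polysomal RNA (limma, adjusted p = 0.000992). Cytoplasmic Flcn was lower too, with means of 7.56 with 4EGI-1 and 7.81 in control cells, without overlap of the groups. Its partner gene Fnip2 fell by 0.39 ± 0.08 in polysomal RNA (limma, adjusted p = 0.0024) and by 0.34 ± 0.08 in cytoplasmic RNA (0.00814, or 0.0665 with the cytoplasmic arrays fitted by themselves). The GTPase gene Rragd fell by 0.60 ± 0.12 in polysomal RNA (limma, adjusted p = 0.00203). Rragd was dim, with polysomal means of 6.69 in control and 6.09 in 4EGI-1 cells, and cytoplasmic means of 6.04 and 5.81. Only its polysomal control group lay well above the filter level on dim genes. In cytoplasmic RNA the lysosomal arginine sensor gene Slc38a9 rose by 0.36 ± 0.08 (limma, adjusted p = 0.00466), and the Ragulator gene Lamtor4 fell by 0.32 ± 0.08 (0.0142). The cytoplasmic call of Lamtor4 ended without control array 3 (limma, adjusted p = 0.0551), without 4EGI-1 array 2 (0.0602) and without array 2 of both cytoplasmic groups (0.0625). It also ended with the cytoplasmic arrays fitted by themselves (0.0743). Polysomal signal moved the same way without overlap of the groups. The polysomal means with 4EGI-1 and in control cells were 9.76 and 9.41 for Slc38a9, and 8.04 and 8.41 for Lamtor4. Between fractions, 5 of these 13 genes were higher in polysomes, 0 lower and 8 not called in 4EGI-1 cells (38.5% called, against 16.7% of all genes and 9.56% higher). In control cells 9 were higher, 0 lower and 4 not called (69.2%, against 29.0% and 16.7% higher).

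Of 11 tested genes of GATOR, KICSTOR and the sensors, 1 rose and 2 fell in polysomal RNA (27.3% called, against 25.2% of all genes), and 1 rose and 0 fell in cytoplasmic RNA (9.09% against 17.8%). Mios, a GATOR2 subunit gene, rose by 0.57 ± 0.09 in the cytoplasm (limma, adjusted p = 0.000621), and Itfg2 of KICSTOR rose by 0.55 ± 0.12 in polysomal RNA (0.00329). In the other fraction each moved the same way but was not called. Polysomal Mios had means of 8.99 with 4EGI-1 and 8.75 in control cells, without overlap. Cytoplasmic Itfg2 had 8.44 and 8.10, with overlap. Of the 11 genes 0 rose and 0 fell for the difference of effects. Castor2, a paralogue of the arginine sensor gene Castor1, and Seh1l, a GATOR2 subunit gene whose product is also in the nuclear pore, fell in polysomal RNA by 0.48 ± 0.11 (limma, adjusted p = 0.00405) and 0.28 ± 0.07 (0.00627), though Castor2 had -0.22 (adjusted p = 0.124) with the mean of its probe sets. Cytoplasmic means with 4EGI-1 and in control cells were 6.90 and 6.98 for Castor2, and 9.51 and 9.50 for Seh1l. Of 7 tested mTOR complex subunit and assembly genes, 0 rose and 2 fell in polysomal RNA (28.6% called, against 25.2% of all genes), and 0 rose and 1 fell in cytoplasmic RNA (14.3% against 17.8%). Prr5, which encodes the mTORC2 subunit protor 1, fell by 0.27 ± 0.09 in polysomal RNA (limma, adjusted p = 0.0406) and by 0.55 ± 0.09 in cytoplasmic RNA (0.00071), and Mapkap1, which encodes the mTORC2 subunit SIN1, fell by 0.32 ± 0.07 in polysomal RNA (0.00414). Cytoplasmic Mapkap1 had means of 10.65 with 4EGI-1 and 10.74 in control cells, and was not called. The polysomal call of Prr5 ended in 8 of 23 alternatives, among them leaving out any 1 of the 6 polysomal arrays (adjusted p = 0.0691 to 0.134).

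**Figure D4:**
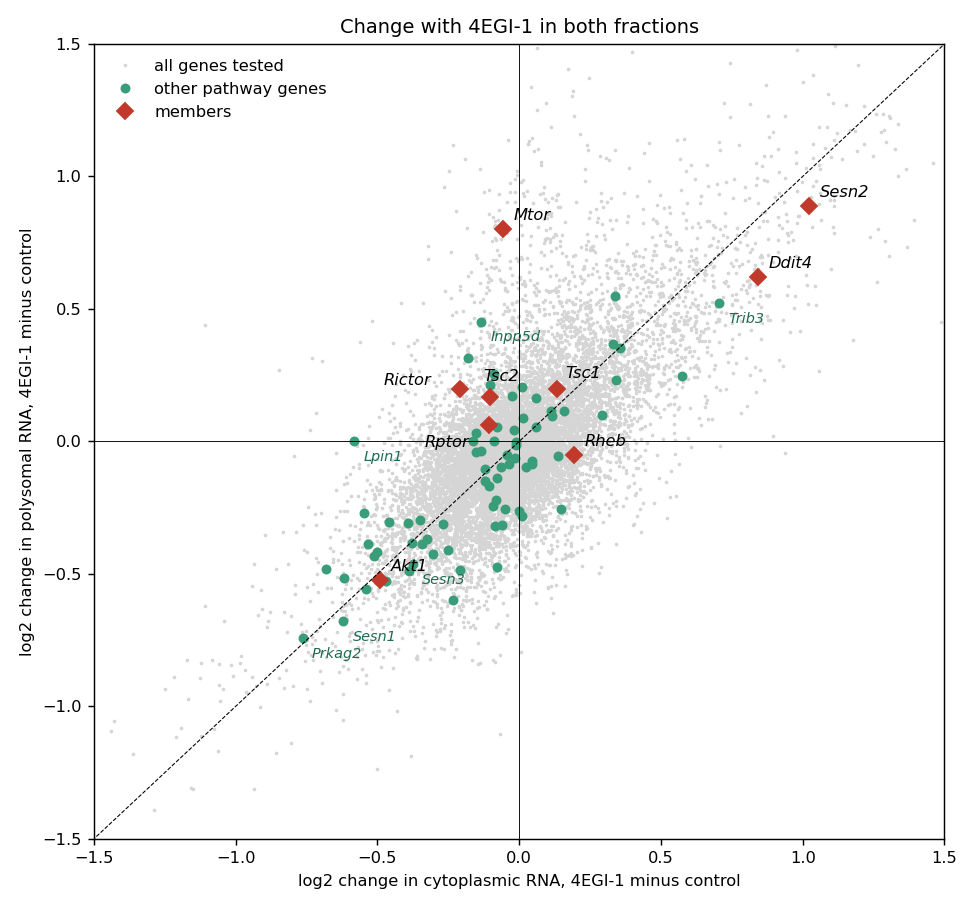
Log2 change with 4EGI-1 in cytoplasmic RNA (x axis) and polysomal RNA (y axis) for the 9 members (red), the 73 other pathway genes (green) and all 13180 genes tested (grey), of which 24 lie beyond 1.5 on an axis and are not drawn. The dashed line marks equal changes. Mtor sits above the line at a cytoplasmic change of -0.06, and Sesn1 and Sesn3 lie below 0 on both axes, while Sesn2 lies above 0 on both.

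Genes whose signal over the 12 arrays was most like that of a member were sought as a description, on arrays that share their scaling. For Mtor these were Exoc4 (Pearson r = 0.9914, n = 12 arrays), Cpt1a (0.9907) and Vwa8 (0.9865), with polysomal changes of 0.70, 0.65 and 0.61 and cytoplasmic changes of -0.07, -0.07 and -0.06. For Sesn2 they were Tlcd3a (0.9789), Ccdc130 (0.9743) and Vegfa (0.9725), which had changes of 0.70, 0.58 and 0.65 in polysomal RNA and 0.66, 0.81 and 0.66 in cytoplasmic RNA. For Ddit4 they were Kansl1 (0.974), Zscan26 (0.9676) and Slc25a53 (0.9673), and for Rictor Dop1b (0.9386), Ttf2 (0.9127) and Polr1b (0.9116). Correlation ignores the size of a change: Kansl1 had 0.21 in polysomal and 0.33 in cytoplasmic RNA, well under the changes of Ddit4.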

How the data were processed

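The deposited table holds log2 values made by the authors with RMA, per the submitters' processing notes, for 34760 probe sets on 12 arrays. The RMA version, and whether it ran jointly, is not given in the sources used here. Genes were assigned from the platform's annotation table (21640 with 1 symbol, 1321 with several, 11799 with none), and symbols were updated through the Entrez number with RefSeq (GRCm38.p6). Each gene was represented by its probe set with the highest mean, and genes with a mean under the 40th percentile of all probe sets (6.003) were left out, which kept 13180. A model of the 4 group means (lmFit, eBayes; limma 3.58.1, R 4.3.3) was fitted to 12 arrays. Errors beside changes are standard errors, and adjusted p-values are limma's with Benjamini-Hochberg. The number of arrays limits the precision.

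The members and lists were chosen with earlier results of these data known. From each list and treatment comparison, up to 3 called genes with the smallest p-values are named. Sesn3, Prkab1, Prkaa2, the second fraction of Trib3 and Stk11, and means given for a second fraction were added after their values were seen. For Mtor, Rictor, Sesn2 and Ddit4, the 3 genes with the highest correlation over the arrays are named, leaving out predicted genes, clone names and small RNAs. A planned comparison by protein length was not run. Alternatives were other normalizations, filters and probe set rules, fits of each fraction or treatment alone, a prior with a trend, a replicate block, and leaving out each array. The scripts were tested on simulated data.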

Additional observations from a re-analysis of the deposited data

Results flagged for a closer look

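The effect of 4EGI-1 differed between polysomal and cytoplasmic RNA, by the interaction term of the limma fit, for 1 member and for 2 of the 73 other pathway genes tested (2.74%, against 2.92% of all genes). For Mtor the polysomal minus cytoplasmic difference of effects was 0.86 ± 0.18 (SE, n = 3 arrays per group; limma, adjusted p = 0.015). For Inpp5d it was 0.59 ± 0.15 (limma, adjusted p = 0.0473), and for Lpin1 0.58 ± 0.14 (limma, adjusted p = 0.0402). Mtor and Inpp5d had higher polysomal signal with 4EGI-1, while Lpin1 had lower cytoplasmic signal. The call of Mtor ended without cytoplasmic 4EGI-1 array 1 (0.81, adjusted p = 0.0501), polysomal 4EGI-1 array 1 (0.83, 0.0531) or polysomal 4EGI-1 array 3 (0.83, 0.0548), that of Inpp5d in 11 of 21 alternatives, and that of Lpin1 in 14 of 20.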

How the results depend on the processing

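The polysomal changes of Mtor, Sesn2, Ddit4 and Akt1 and the cytoplasmic changes of Sesn2 and Ddit4 kept their direction and call under every alternative run, and so did 28 of the 37 calls of other pathway genes named in the text. Centring gave 3 members called between fractions in control cells (6 as reported), and polysomal minus cytoplasmic values in 4EGI-1 cells of 0.01 for Tsc2 and 0.06 for Ddit4, against -0.09 and -0.03. For the difference of effects, 2 pathway genes were called, against 1 with quantile normalization of all arrays or within each fraction and with the filter at the 60th percentile, and 0 with centring or no filter; with no filter 242 genes in all were called, against 385. Fitted by itself, cytoplasmic RNA gave 13 pathway genes and 1100 genes (22 and 2352 as reported), and polysomal RNA 7 members and 5031 genes (4 and 3316). Without cytoplasmic array 2 of both groups, chosen after seeing the data, 2 members were called for the difference and 3 between fractions in 4EGI-1 cells (1 each as reported).

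Leaving out 1 array gave, for the difference of effects, 0 to 2 members, 0 to 5 pathway genes and 200 to 670 genes. Between fractions it gave 0 to 2 members, 7 to 19 pathway genes and 1046 to 2648 genes in 4EGI-1 cells, and 3 to 6 members in control cells. The cytoplasmic effect had 1502 to 3093 genes. Uncalled values that changed sign ranged, for the cytoplasmic effect, from -0.20 to 0.04 (Mtor), -0.26 to 0.00 (Rptor) and -0.20 to 0.00 (Tsc2), for the difference from -0.02 to 0.15 (Tsc1), -0.34 to 0.08 (Sesn2) and -0.16 to 0.15 (Akt1), and between fractions in 4EGI-1 cells from -0.19 to 0.00 (Tsc2) and -0.10 to 0.01 (Ddit4). The cause of these shifts was not tested.

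Correlations of deviations between same-numbered arrays of 4EGI-1 and control cells were -0.216, 0.562 and 0.516 for cytoplasmic arrays 1, 2 and 3. For the polysomal arrays they were 0.0751, 0.163 and -0.055. Cytoplasmic 4EGI-1 arrays 2 and 3 and polysomal 4EGI-1 array 2 correlated best with the control array of the same number, and the others did not. Between same-numbered polysomal and cytoplasmic arrays 1, 2 and 3 they were 0.0362, 0.228 and 0.0187 in 4EGI-1 cells and 0.0199, 0.141 and 0.125 in control cells. There every polysomal array except 4EGI-1 array 1 correlated best with the cytoplasmic array of its number and treatment. The main fit did not take the numbers as pairs. With a replicate block in the fit of 12 arrays the members called stayed at 4 for polysomal and 3 for cytoplasmic RNA and 1 for the difference. Between fractions they stayed at 1 in 4EGI-1 cells and 6 in control cells. With that block in the polysomal fit by itself, 6 members and 5034 genes were called. Arrays of 3 a group limit the precision.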
